A study of Homo sapiens with 10 samples.

Results

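The 39 human HOX genes, chosen as every gene of the expression table whose symbol is HOX, a cluster letter from A to D and a number, made up 39 of 31017 genes. They were followed together with the 35 captured fragments, of 21833, that held the annotated start of at least 1 of them. RNA sequencing gave 11 genes of the HOXA cluster (chromosome 7), 10 of HOXB (chr17:46606550-46806540), 9 of HOXC (chr12:54332535-54449814) and 9 of HOXD (chr2:176957619-177055688, coordinates in GRCh37). HOX proteins are homeodomain transcription factors that give cells of the embryo their position along the head to tail axis. Within a cluster the genes lie in the order in which they are used, so that paralog groups with low numbers act first and furthest forward, in the hindbrain, and groups with high numbers act late and in the tail. The forebrain and midbrain lie in front of all HOX domains, and in pluripotent cells the clusters are known to be held silent by Polycomb complexes.

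The samples were H9 cells, a human embryonic stem cell (ESC) line, grown undifferentiated in Pluripro medium and matrix, and neuroectodermal cells (NECs) made from the same line and harvested on day 7 of differentiation. Each cell type had 2 biological replicates by RNA sequencing and 2 by promoter capture Hi-C (PCHi-C). Both groups descend from a single line, so the replicates measure the spread between cultures and not between people. In PCHi-C, chromatin is cross-linked, cut with HindIII and ligated, and ligation products that hold a promoter fragment, called the bait, are captured and sequenced. Whatever fragment is paired with a bait in a call is its promoter-interacting region (PIR). Each pair carries a CHiCAGO score, which rises as the number of ligation products exceeds what the distance and the fragments predict, and the lists hold pairs that scored at least 12.

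RNA library totals were 19234087 to 25356382 reads counted in genes, and the PCHi-C replicate lists held 81168 to 100305 calls. By the rule for calls given below, 9 of 10 pluripotency genes fell in NECs and 9 of 10 neuroectoderm genes rose. Among all 17564 genes tested, 9.68% fell and 11.4% rose. Of 10 neural crest genes 5 rose and 1 fell, and the summed level of this list was 195.6 and 188.4 CPM (reads scaled to a common library size) in ESCs and 278.4 and 140.4 CPM in NECs, with PAX3 at 5 and 8 reads in ESCs against 1416 and 441 in NECs, and TFAP2A at 1, 0, 117 and 17 reads in the same order. ETS1 of the same list fell from 2010 and 2605 reads to 609 and 120. Of 7 trunk and mesendoderm genes tested, 5 fell. The ESC RNA libraries came from 1 sequencing lane and the NEC libraries from another, so lane and cell type cannot be told apart. A difference in bulk RNA cannot tell fewer expressing cells from less RNA per cell.

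Promoter sequences of 3 genes that rose are shown first, because these genes lie at or toward the front of their clusters and HOX proteins are known to bind HOX promoters. RefSeq promoters were found for 20 of the 39 HOX symbols, 27 promoters in all, and each of the 3 printed here matched GRCh37 once. They are the 250 bases before the start, written 5′ to 3′ on the strand of the gene. Capitals mark the letters TGATNNAT on either strand, of the kind that HOX proteins and their PBX partners are known to bind together. In HOXB1, repeats of this kind before the gene are known from mouse work to let the protein act on its own promoter. HOXA2 lies at chr7:27142303-27142552 (minus strand), HOXB1 at chr17:46608374-46608623 (minus strand) and HOXC4 at chr12:54410422-54410671 (plus strand).
HOXA2: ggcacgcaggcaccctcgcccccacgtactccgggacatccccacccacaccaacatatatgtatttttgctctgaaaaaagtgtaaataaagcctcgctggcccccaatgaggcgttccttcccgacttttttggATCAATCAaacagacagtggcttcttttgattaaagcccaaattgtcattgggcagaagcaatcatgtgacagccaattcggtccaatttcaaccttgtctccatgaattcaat
HOXB1: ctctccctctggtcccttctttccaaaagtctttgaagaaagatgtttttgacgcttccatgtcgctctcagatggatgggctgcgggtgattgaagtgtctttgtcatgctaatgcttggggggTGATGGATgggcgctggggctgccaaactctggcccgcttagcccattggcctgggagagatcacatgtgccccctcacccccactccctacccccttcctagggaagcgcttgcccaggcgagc
HOXC4: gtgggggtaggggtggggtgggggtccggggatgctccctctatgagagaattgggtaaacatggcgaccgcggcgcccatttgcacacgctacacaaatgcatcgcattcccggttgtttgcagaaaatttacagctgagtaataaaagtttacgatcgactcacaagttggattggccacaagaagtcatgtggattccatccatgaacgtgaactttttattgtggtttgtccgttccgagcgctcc
The letters occurred once before HOXA2 and once before HOXB1, and not in the window of HOXC4. The 7 RefSeq promoters of HOXA3, which also rose, held no match, while that of HOXD11, a gene with no read in any library, held 1. Across the 27 HOX promoters 3 held them (11.1%), against 2273 of 35114 RefSeq promoters of the same length (6.47%). The median number of CpG dinucleotides was 19 in the HOX windows and 11 in all windows. A match of letters is a description and shows no binding.

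The first question was which HOX genes were transcribed in either cell type. In ESCs the whole set was near silence, with 29 and 57 reads over all 39 genes in the 2 libraries, and in NECs it drew 1875 and 1332 reads. Paralog groups 1 to 4 held 98.8% and 98.6% of the NEC reads. Groups 5 to 8 held 9 and 8 reads in the NEC libraries, and groups 9 to 13 held 13 and 10. Of the 39 genes, 17 had no read in any library and 28 had at most 3 in every library. Only 9 reached 10 reads in any library, and 8 passed the filter on low counts, which left 31 untested. Counting error alone allows a gene without a read up to 3 reads in a library of this depth.

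A gene counted as called when its p from edgeR's quasi-likelihood test, adjusted by Benjamini-Hochberg, was below 0.05 and its log2 fold change was past 1.5 in either direction. By that rule 7 HOX genes rose in NECs and 1 fell. Over all 17564 genes tested, 11.4% rose and 9.68% fell. The 7 genes passed the filter through their NEC libraries and the 1 through its ESC libraries, so each had to differ to be tested, and the share of the tested HOX genes that were called is not set against the background.

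Group 1 and 2 genes, which act in the hindbrain, carried most of the NEC reads. HOXA2, the only HOX gene known to act as far forward as the second hindbrain segment, had 0 and 1 read in ESCs and 732 and 674 in NECs. Its mean level was 0.0202 ± 0.0286 CPM in ESCs and 30.8 ± 4.90 CPM in NECs (SD, n = 2). The ratio of NECs to ESCs was 1331, with an exact 95% counting interval of 239 to 52624, and the adjusted p was 1.55e-05 (edgeR). Its log2 fold change was 10.08, and 9.37 without ESC replicate 1. Without ESC replicate 2 no ESC read was left for HOXA2. HOXB2, which shares its hindbrain role, had 2 and 2 reads in ESCs and 542 and 293 in NECs. The log2 fold change of HOXB2 was 7.58 (SE 0.62, edgeR adjusted p 0.000173). In both genes the NEC libraries stood far above the ESC libraries, and for HOXB2 the NEC libraries lay further from each other than for HOXA2. Without NEC replicate 1 the log2 fold change of HOXB2 was 6.94.

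HOXB1, known as the marker of the fourth hindbrain segment, had 2 and 5 reads in ESCs and 165 and 44 in NECs. For HOXB1 the log2 fold change was 4.84 (SE 0.91, edgeR adjusted p 0.00426), and its NEC level was 4.752 ± 4.199 CPM (SD, n = 2). The groups of libraries did not overlap, but the 2 NEC libraries lay far apart. The log2 fold change was 3.44 without NEC replicate 1, 5.54 without NEC replicate 2 and 5.40 without ESC replicate 2, and the call held each time. NEC replicate 1 was also the library with more PAX3 and TFAP2A reads, whose part in the spread of HOXB1 was not tested.

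Group 3 and 4 genes act further back in the hindbrain. HOXB3 had no read in ESCs and 230 and 124 in NECs, at least 111.7-fold higher against a floor of 3 reads over the ESC group (edgeR adjusted p 0.000628). HOXA3 had no read in ESCs and 30 and 23 in NECs, at least 16.7-fold higher against the same floor (edgeR adjusted p 0.00141). HOXC4 had 0 and 1 read in ESCs and 34 and 21 in NECs, a ratio of 52.1 with an exact interval of 8.97 to 2094 (edgeR adjusted p 0.00178). All 3 genes were at or near 0 in both ESC libraries and above 20 reads in both NEC libraries. The log2 fold change of HOXC4 was 5.42, and 4.72 without ESC replicate 1, and without ESC replicate 2 it had no ESC read left. HOXB4 drew 8 and 0 reads in NECs and none in ESCs, below what could be tested.

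Within group 4 only HOXC4 rose, while HOXA4 had no read in any library and HOXD4 had 0 and 1 read in NECs. Behind group 4 no gene had more than 12 reads in an NEC library. HOXB9, a trunk gene, had 12 and 6 reads in NECs and none in ESCs and was not tested. HOXB8 had 5 and 2 reads in NECs and none in ESCs. HOXB13, the last gene of its cluster, went the other way, with 14 and 18 reads in ESCs and none in NECs. It was at least 11.3-fold lower in NECs against the floor (edgeR adjusted p 0.00164). Without ESC replicate 2 it did not pass the filter on low counts and no HOX gene was called lower. HOXB13-AS1, which overlaps the end of HOXB13 on the opposite strand and was named after its values were seen, had 20 and 22 reads in ESCs and none in NECs, and PRAC had 17, 10, 0 and 0.

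HOXD genes stayed at 0 to 2 reads in every library, with HOXD3 at 2, 2, 2 and 1 reads as the gene with most. In HOXC the only gene other than HOXC4 with more than 1 read in a library was HOXC13, at 1 and 3 reads in each cell type. At this depth no difference was detectable for either cluster beyond HOXC4.

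**Figure D1:**
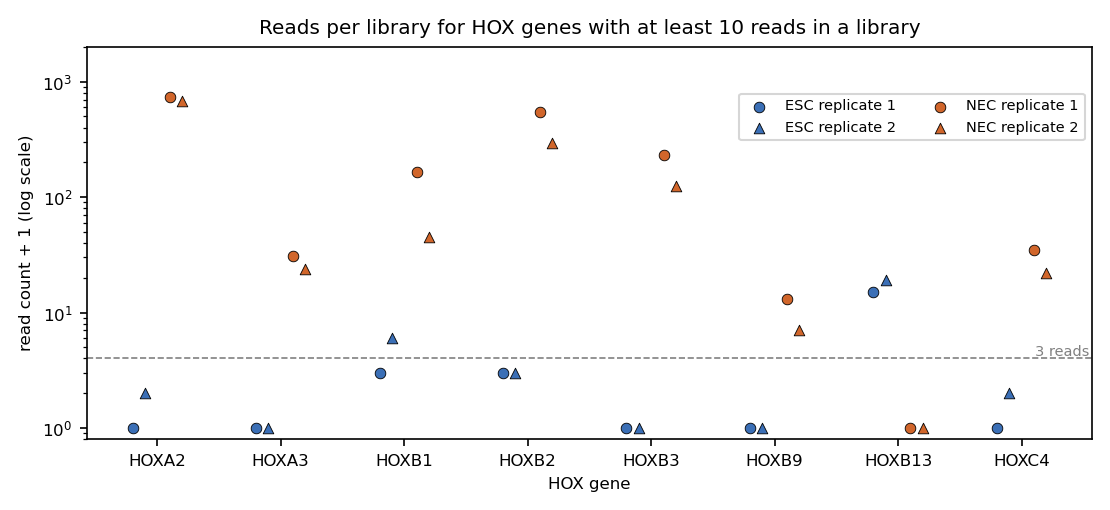
Reads per library plus 1 (log axis) for HOX genes with at least 10 reads in a library; circles are replicate 1, triangles replicate 2, blue ESCs and orange NECs, and the dashed line marks 3 reads. NEC points lie above ESC points for every gene shown but HOXB13, which has its points the other way round.

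Per kilobase of exon the order of the NEC levels could be read across genes. HOXA2 led with 14.7 and 11.7 RPKM (CPM per kilobase of exon), followed by HOXB2 with 10.3 and 4.84. HOXB1 had 3.11 and 0.717 RPKM and HOXB3 1.45 and 0.677. The ranges of HOXA2 and HOXB2 did not overlap, while those of HOXB1 and HOXB3 did. Of the genes with at least 10 reads in an NEC library, HOXC4, HOXA3 and HOXB9 had the lowest levels, with 0.575 and 0.308, 0.326 and 0.216, and 0.217 and 0.0940 RPKM.

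The counting did not use strand, so reads of a HOX gene and of an antisense transcript over it cannot be told apart. HOXB-AS1, which runs antisense across HOXB2, drew 589 and 315 reads in NECs and 2 and 2 in ESCs, close to the numbers of HOXB2 in each library. HOTAIRM1, a noncoding RNA on the opposite strand that overlaps the end of HOXA2, rose from 8 and 16 reads to 301 and 285 (log2 fold change 4.54, SE 0.28, edgeR adjusted p 7.15e-05). HOXB-AS3, which overlaps the HOXB5 region, had no read in ESCs and 34 and 15 in NECs and also rose. Of the 12 cluster noncoding RNAs of the chosen list that had counts, these 3 were the only ones tested. HOXB13-AS1, which was not on that list, was tested and fell (log2 fold change -7.45, SE 0.88, edgeR adjusted p 0.00121). HOTAIR, HOTTIP and HOXA11-AS had no read in any library.

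Partners and regulators of HOX genes were compared next. Of 9 cofactors that bind DNA together with HOX proteins 4 rose, against 11.4% of all genes, with a median log2 fold change of 1.39 against 0.01 over all genes. MEIS2 went from 5 and 8 reads to 2031 and 2035 (log2 fold change 8.19, SE 0.19), MEIS1 from 10 and 14 to 621 and 501, PKNOX2 from 149 and 134 to 922 and 846, and PBX4 from 23 and 27 to 83 and 68. 

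Of 11 inducers and limits of HOX expression that were tested, 4 rose and 2 fell, against 11.4% and 9.68% of all genes. Their median log2 fold change was 0.45, against 0.01 over all genes. EGR2, the hindbrain factor known to switch on HOXA2 and HOXB2, went from 6 and 8 reads to 1459 and 2281 (log2 fold change 7.94, SE 0.26). GBX2, which sets the front edge of the hindbrain, went from 23 and 62 to 1028 and 2783. The retinoic acid receptor RARB went from 45 and 62 to 226 and 291, and CYP26B1, an enzyme that degrades retinoic acid, from 21 and 15 to 234 and 194. CDX4 and T, which belong to the posterior embryo, fell from 42 and 84 to 2 and 3 and from 20 and 70 to 13 and 8. CDX2 had no read in ESCs and 9 and 11 in NECs and was not tested.

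Genes of the forebrain and midbrain, which lie in front of HOX domains, were compared in the same libraries. Of 9 tested, 7 rose and 1 fell, against 11.4% and 9.68% of all genes, with a median log2 fold change of 4.49. OTX2, the most abundant of them, had 3105 and 2872 reads in ESCs and 1434 and 1093 in NECs and was not called, since its log2 fold change of -1.33 did not reach the threshold. The summed level of the list was 174.2 and 121.2 CPM in ESCs and 130.1 and 84.07 CPM in NECs. EMX2 had no read in ESCs and 243 and 123 in NECs, DMRTA2 0 and 1 against 51 and 53, and OTX1 12 and 14 against 543 and 327. HESX1 fell from 134 and 83 to 37 and 32. Reads of hindbrain HOX genes and of forebrain genes were thus found in the same bulk libraries, and whether they came from the same cells was not tested.

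Of 21 Polycomb and Trithorax genes tested, 3 rose and 2 fell, against 11.4% and 9.68% of all genes, so the counts called stood near the background. Their median log2 fold change was 0.29. By adjusted p alone 19 of the 21 passed 0.05 (edgeR), most with a fold change short of the threshold. No share over all genes was worked out for that looser count. CBX8 rose from 22 and 12 reads to 218 and 251 and PHC2 from 478 and 410 to 4449 and 4349, both members of Polycomb repressive complex 1. PHC1 of the same complex fell from 14541 and 18899 to 4105 and 4551, and JARID2, a partner of Polycomb repressive complex 2, from 6586 and 8267 to 2257 and 3215. Of 10 tested genes that flank the clusters, 0 were called by edgeR or by DESeq2, while 6 had an unadjusted p under 0.05 and 5 an adjusted p under 0.05 with a smaller fold change. Their median log2 fold change was 0.50.

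The second question was which fragments the HOX promoters touched. The 35 baits carried 813 merged calls in ESCs and 641 in NECs, where merged lists combine both replicates. That was 0.819% and 0.646% of all calls. A HOX bait had a median of 20 PIRs in ESCs and 16 in NECs, against 3 over all baits with a call in either list. In the replicate lists the HOX medians were 11 and 13 in ESCs and 10 and 10 in NECs, against 3 or 4 over all baits. HOX fragments were rich in CpG dinucleotides, with a median of 37.4 per kb. The median was 9.44 over 35690 listed fragments of the same 4 chromosomes, baits and PIRs together. HOX fragments were not compared with the other baits alone, so whether they differ from other promoter fragments was not tested. The part of composition in the number of calls was not tested either.

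Total calls at HOX baits were 426 and 570 in ESC replicates and 462 and 360 in NEC replicates, ranges that overlapped (two-sided exact permutation p 0.667). With 2 replicates against 2 the smallest two-sided exact p is 0.333, so no count of calls can pass a threshold of 0.05. Of the 35 baits, 3 had more PIRs in both NEC replicates than in either ESC replicate and 5 had fewer. Over all baits 13.2% and 12.9% did so, and over the 8353 baits with at least as many calls as the HOX bait with fewest, 16.7% and 15.7%. The HOX counts are read as no more than this background. The 3 were HOXA2 (11 and 13 PIRs in ESCs, 16 and 17 in NECs), HOXA10 (4 and 6 against 10 and 13) and HOXD10 (4 and 5 against 8 and 6). Merging turned the direction for HOXA2, with 28 merged PIRs in ESCs against 17 in NECs, and for HOXA10, with 8 against 5, but not for HOXD10, with 12 against 16. The 5 were HOXB2 (13 and 28 against 9 and 12), HOXB3 (18 and 23 against 15 and 11), HOXB6 (10 and 9 against 4 and 5), HOXB13 (7 and 7 against 1 and 2) and HOXC12 (27 and 36 against 24 and 10), and all 5 also had fewer PIRs in the merged NEC list. HOXC9 had the most PIRs of any HOX bait, with 40, 54, 46 and 26 in the 4 lists.

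**Figure D2:**
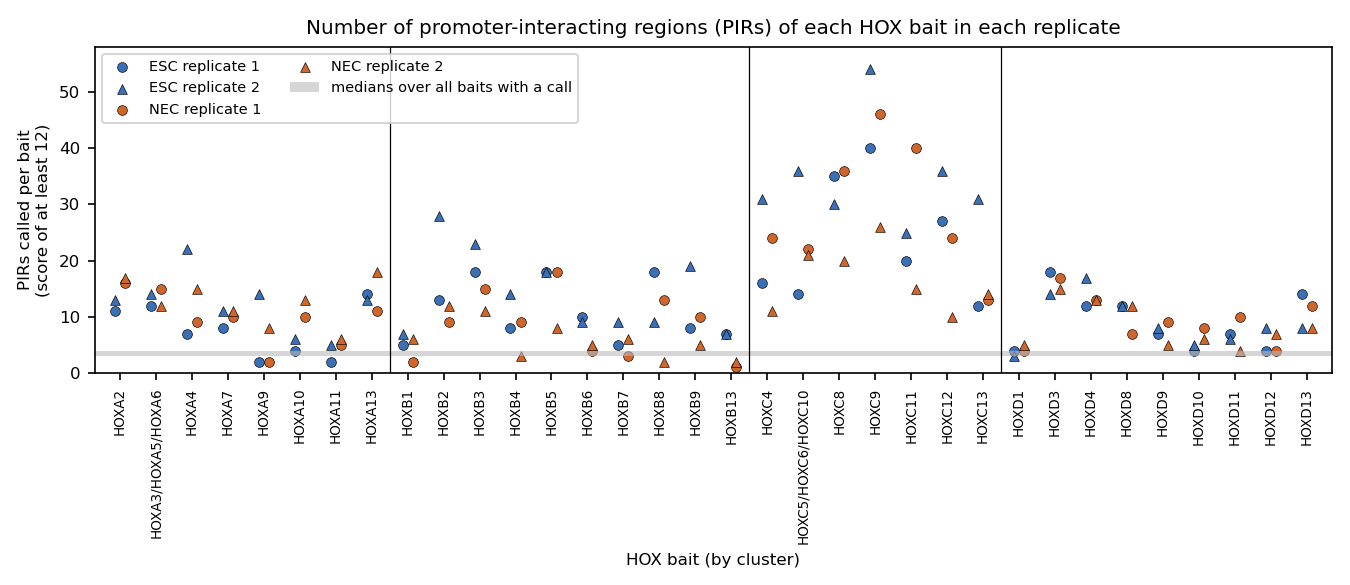
Number of PIRs called for HOX baits (x axis, by cluster, 1 HOXA bait not shown) in each replicate list; circles are replicate 1, triangles replicate 2, blue ESCs and orange NECs, and the grey band spans the medians over all baits with a call. HOXC9 reaches 54 in ESC replicate 2, and the HOXD baits stay at 3 to 18.

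Contacts inside the clusters came next. From the HOX baits the merged lists held 292 pairs of fragments within a HOX cluster in ESCs and 191 in NECs. With baits that overlap any part of a HOX gene the numbers were 358 and 246. The replicate lists did not bear out a difference, with 69 and 209 pairs in ESCs and 66 and 87 in NECs (two-sided exact permutation p 0.667). ESC replicate 2 alone lay above the rest. This library held fewer calls within 178.7 kb over all baits than ESC replicate 1, 21326 against 23031, and more at HOX baits, 300 against 117. The submitters' design notes give ESC replicate 1 as 1 technical replicate and ESC replicate 2 as 2, and the part of that in its HOX calls was not tested. The strongest pair inside a cluster joined the HOXB5 and HOXB9 fragments 30.4 kb apart, with a merged score of 40.3 in ESCs and 23.4 in NECs and replicate scores of 19.7 and 30.3 in ESCs and 19.0 in NEC replicate 1, and no call in NEC replicate 2. Among pairs called in all 4 replicates, HOXB5 met a fragment with exons of HOXB2 and HOXB-AS1 at 15.9 and 19.5 in ESCs and 19.7 and 14.4 in NECs. HOXA13, at the silent end of its cluster, met a fragment with exons of HOXA3 at 13.2 and 22.2 in ESCs and 18.9 and 15.5 in NECs. HOXC9 met a fragment with an exon of HOXC4 at 13.4 and 21.1 in ESCs and 16.3 and 16.6 in NECs. For these 3 pairs the replicate ranges of the cell types overlapped.

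Across the whole set 1165 bait and PIR pairs were called in at least 1 replicate. Of these 27 (2.32%) were called in both NEC replicates and no ESC replicate, against 2.46% of all 274669 pairs. A further 50 (4.29%) were called in both ESC replicates and no NEC replicate, against 2.56%, and 75 (6.44%) in all 4 replicates, against 2.85%. By cluster the NEC pairs, ESC pairs and pairs in all 4 numbered 9, 2 and 13 in HOXA, 1, 19 and 8 in HOXB, 8, 24 and 40 in HOXC, and 9, 5 and 14 in HOXD. HOXA and HOXD thus had more pairs in NECs alone than in ESCs alone, and HOXB and HOXC more in ESCs alone. Pairs in any replicate numbered 255, 280, 410 and 220 from HOXA to HOXD. As shares of these, NEC pairs were 3.53%, 0.357%, 1.95% and 4.09%, and ESC pairs 0.784%, 6.79%, 5.85% and 2.27%. Pairs in all 4 were 5.1%, 2.86%, 9.76% and 6.36%. The HOXC share in NECs alone, the HOXD share in ESCs alone and the HOXB share in all 4 lay near those over all pairs. A pair that a list lacks may have scored just under 12. Of the 27 pairs of NECs, 23 were also missing from the merged ESC list, and of the 50 pairs of ESCs, 35 were missing from the merged NEC list. Merged lists shared 405 pairs, 49.8% of the ESC and 63.2% of the NEC pairs and 38.6% of pairs in either, against 28.4% over all baits.

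**Figure D3:**
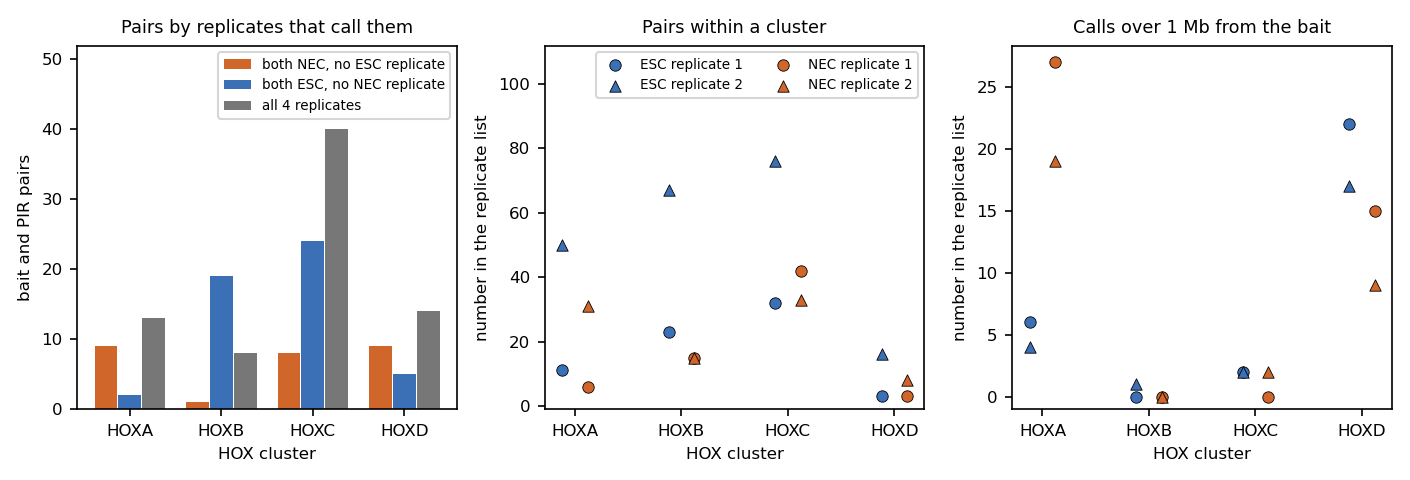
Left, bait and PIR pairs of each HOX cluster called in both replicates of 1 cell type and neither of the other, or in all 4. Middle, fragment pairs within a cluster, and right, calls over 1 Mb from the bait, in each replicate list (blue ESCs, orange NECs). HOXA has 27 and 19 calls over 1 Mb in NECs against 6 and 4 in ESCs, and ESC replicate 2 has the most pairs within every cluster.

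The distal fragments that the contacts turn on are shown by the ends at which they were cut. Each line gives the first 60 bases of the plus strand in GRCh37, with the HindIII site in capitals. Shown are 1 distal PIR that several baits of each cluster shared and a more distant HOXA PIR. HOXA2 met the latter in both NEC replicates and no ESC replicate, and its label refers to that pair. From HOXA4 the same PIR was called in ESC replicate 1, at 14.7, and in the merged ESC list, at 13.6.
HOXA PIR in SKAP2, chr7:26897455-26902411: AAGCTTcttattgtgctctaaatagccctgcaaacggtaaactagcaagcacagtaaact
HOXA PIR in both NEC replicates alone, chr7:25894198-25904065: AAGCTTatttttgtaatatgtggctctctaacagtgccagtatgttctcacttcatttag
HOXB PIR in SKAP1, chr17:46229768-46240679: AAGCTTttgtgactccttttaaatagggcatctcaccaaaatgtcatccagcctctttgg
HOXC PIR beside SMUG1, chr12:54583081-54591267: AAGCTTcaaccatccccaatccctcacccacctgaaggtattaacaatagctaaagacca
HOXD PIR at LINC01116, chr2:177501443-177506085: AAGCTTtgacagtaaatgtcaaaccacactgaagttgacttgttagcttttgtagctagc
The HOXD fragment and the more distant HOXA fragment were CpG rich, with 33.0 and 31.4 CpG dinucleotides per kb. The other 3 fragments had 6.46, 14.9 and 10.6 per kb, against a median of 9.44.

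HOXA calls over 1 Mb from the bait were more numerous in NECs in replicate and merged lists. Outside the cluster HOXA baits had 57 and 49 calls in ESCs and 83 and 77 in NECs, and the median distance of these calls was 444 and 365 kb in ESCs and 823 and 727 kb in NECs. Calls over 1 Mb numbered 6 and 4 in ESCs and 27 and 19 in NECs. None of these ranges overlapped, each with the smallest exact permutation p of 0.333. In all, 25 such comparisons were made over the set and its clusters, and those of HOXB and HOXD below are among them. With 2 replicates against 2, ranges without overlap arise often by chance, and no background share was worked out for them. In the merged lists the number outside the cluster was 71 in ESCs and 67 in NECs, so the higher NEC number was not seen there, while the median distance was 278.8 and 388.7 kb. A stretch of 6 fragments at chr7:25887841-25913876, singled out after its values were seen, held 16 of the 27 and 9 of the 19 far calls in the NEC replicates. It held 1 and 0 calls in the ESC replicates. All 13 far calls of the merged NEC list lay in it, against 1 of 2 in the merged ESC list, from HOXA4. The merged NEC calls came from 5 baits, among them those of HOXA2, HOXA3/HOXA5/HOXA6, HOXA7 and HOXA9.

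The HOXA2 bait, chr7:27137200-27143268, met chr7:25894198-25904065 at -1241.1 kb (negative distances run toward lower coordinates). It scored 14.5 and 15.3 in the NEC replicates and 15.2 in the merged NEC list, without a call in any ESC list. The distal fragment overlaps an exon of a noncoding gene known only by an identifier. HOXA2 was also among the genes that rose, but HOXA7 and HOXA9, which met the same stretch in the merged NEC list, had at most 2 reads in any library.

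Closer in, HOXA baits met the body of SKAP2, a neighbour gene, in both cell types. Its exonic fragment chr7:26897455-26902411 was called from 5 baits in merged ESCs and 7 in merged NECs. From HOXA2 it scored 15.97 and 15.36 in ESC replicates, 19.26 and 25.01 in NEC replicates, and 20.4 and 28.2 in the merged lists. HOXA10 met it with 14.2 and 12.5 in the NEC replicates and no ESC call. On the other side the fragment with the start of EVX1, the homeobox gene next to HOXA13, was called from 6 baits in merged ESCs and 1 in merged NECs, but in the replicates from 1 and 5 baits in ESCs and 0 and 2 in NECs, ranges that overlapped. EVX1 had no read in ESCs and 5 and 1 in NECs.

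In the replicate lists, calls outside the cluster went the other way in HOXB than in HOXA. Total calls of HOXA baits were 70 and 103 in ESC replicates and 89 and 108 in NEC replicates, ranges that overlapped. The merged lists held 146 HOXA calls in ESCs and 106 in NECs. HOXB baits had 110 and 143 calls in ESC replicates and 84 and 60 in NEC replicates, and 293 and 161 in the merged lists. The HOXB replicate ranges did not overlap (exact permutation p 0.333, the smallest possible). Calls outside the cluster, 85 and 73 against 69 and 45, and pairs within it, 23 and 67 against 15 and 15, both followed the total. HOXB2, whose gene rose, had 5 pairs in both ESC replicates and neither NEC replicate, among them the HOXB8 fragment (scores 12.8 and 13.3 in ESCs) and a fragment with exons of HOXB7 and HOXB8 (12.8 and 12.4). The merged NEC list still held the first of these at 13.3 and did not hold the other. It kept HOXB9 in all 4 lists, with 16.9 and 22.3 in ESCs and 13.4 and 13.7 in NECs. HOXB13, whose gene fell, had 3 pairs in both ESC replicates and neither NEC replicate, the strongest with a fragment in TTLL6 at 13.9 and 18.4. The merged NEC list held all 3, at 13.3, 14.4 and 15.9. The 1 HOXB pair in both NEC replicates alone joined HOXB4 to a SKAP1 intron at -429.7 kb, with 17.3 and 12.6. HOXB4 met the SKAP1 exon fragment close by in both ESC replicates and neither NEC replicate, at 12.5 and 14.01, and the merged NEC list held that pair at 14.22.

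All HOXB baits but HOXB13 met the same distal fragment of SKAP1, a T cell adaptor gene with at most 2 reads in any library. That fragment, chr17:46229768-46240679, was called from 9 baits in merged ESCs and 8 in merged NECs. From HOXB5 it scored 24.3 and 31.6 in ESC replicates and 30.1 and 14.99 in NEC replicates. A fragment past the other end of the cluster, chr17:46829128-46832061, was called from 9 baits in merged ESCs and 6 in merged NECs, and from 6 and 8 baits in ESC replicates and 3 and 1 in NEC replicates. HOXB1, HOXB2, HOXB7 and HOXB13 each held it in both ESC replicates and neither NEC replicate. The merged NEC list still held it for HOXB2, at 13.09, and HOXB13, at 14.37, and not for HOXB1 or HOXB7.

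**Figure D4:**
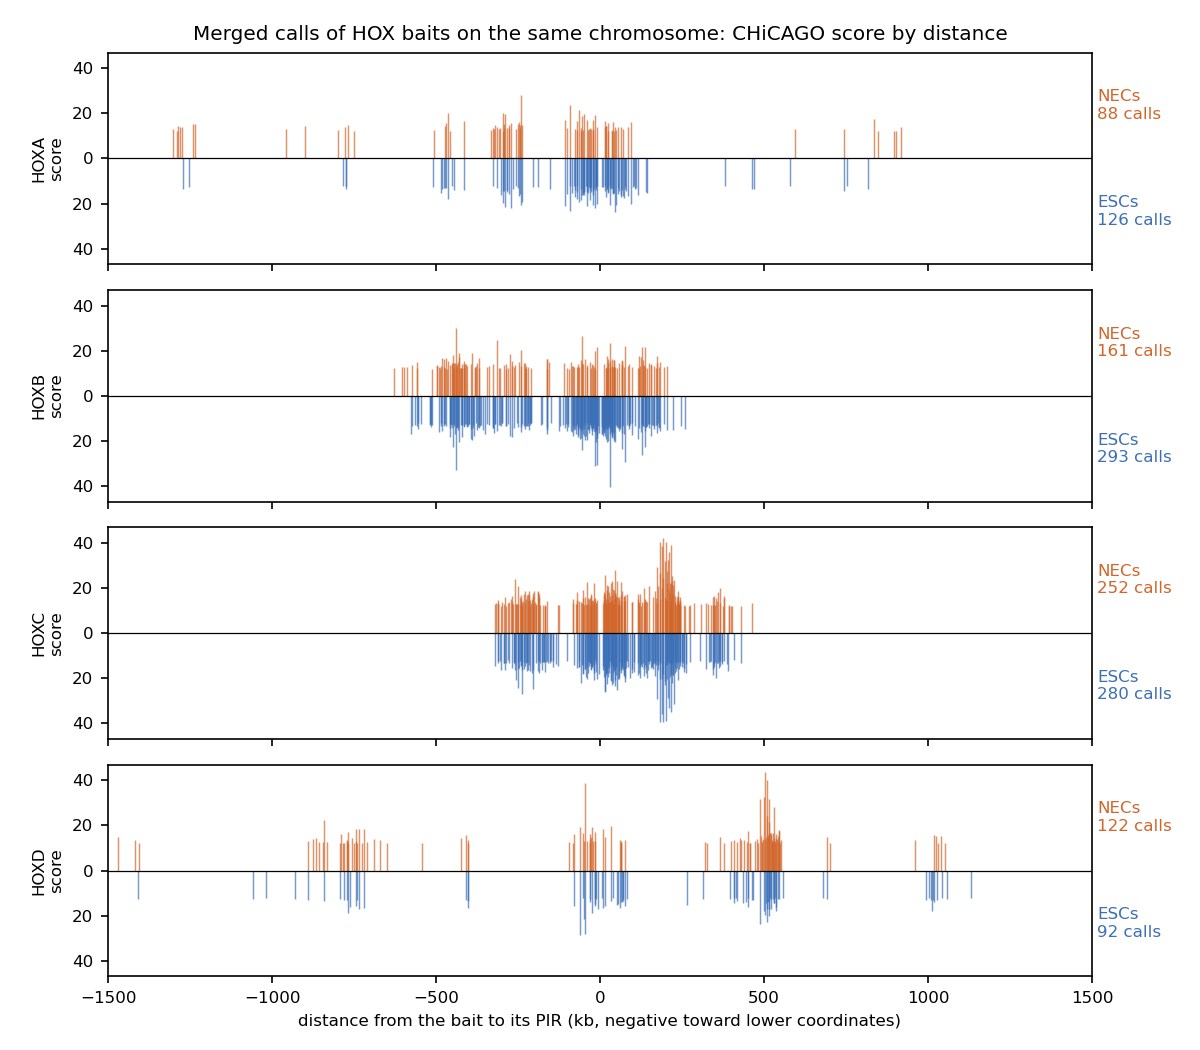
Merged CHiCAGO score (y axis) of each HOX call on the same chromosome by distance from bait to PIR in kb (x axis, negative toward lower coordinates), with NECs up in orange and ESCs down in blue, 1 panel per cluster; 1 HOXA bait is not shown. The HOXA2 pair at -1241.1 kb has a line in NECs alone, and the tallest lines stand at 192.9 kb in HOXC and 501.8 kb in HOXD.

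HOXC had the densest contacts although its genes were all but silent. Its 7 baits drew 164 and 243 calls in ESC replicates and 205 and 117 in NEC replicates, ranges that overlapped. All 7 met chr12:54583081-54591267, an intergenic fragment 133.3 kb past the cluster and beside SMUG1, in both merged lists. From HOXC9 this pair scored 30.9 and 24.9 in ESCs and 41.5 and 30.2 in NECs, and 39.6 and 42.3 in the merged lists. From HOXC4, the gene that rose, it scored 21.7 and 22.2 in ESCs and 21.4 and 24.0 in NECs, with overlapping replicate ranges. HOXC4 had 4 pairs within the cluster in both ESC replicates and neither NEC replicate, among them the fragment with exons of HOTAIR and HOXC12 at 13.5 and 20.2 in ESCs, which scored 22.1 and 13.7 in the merged lists. HOXC9 and HOXC8, with no read in any library, had 12 and 9 pairs called in all 4 replicates, the most of any HOX bait.

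HOXD, without a gene above 2 reads, gave different pictures in replicate and merged lists. Calls were 82 and 81 in ESC replicates and 84 and 75 in NEC replicates, ranges that overlapped, and 94 and 122 in the merged lists. The median distance of calls outside the cluster was 727 and 711 kb in ESCs and 550 and 527 kb in NECs, and calls over 1 Mb numbered 22 and 17 against 15 and 9, both without overlap and in the opposite direction to HOXA (exact p 0.333 each, the smallest possible). The merged ESC and NEC lists gave medians of 532.2 and 534.9 kb, so the shift in the median was not seen there. Merged calls over 1 Mb numbered 12 in ESCs and 8 in NECs, the same direction as in the replicates. The fragment at the starts of LINC01116 and LINC01117, chr2:177501443-177506085, was called from 7 of 9 baits in merged ESCs and from 9 in merged NECs. From HOXD3 it scored 12.1 and 20.8 in ESC replicates and 22.7 and 41.0 in NEC replicates, and 19.7 and 43.8 in the merged lists. From HOXD8 it scored 17.9 and 19.3 in ESCs and 21.3 and 41.2 in NECs. From HOXD4 it scored 19.9 and 24.7 in ESCs and 25.95 and 25.51 in NECs. For all 3 baits both NEC scores lay above both ESC scores, by least for HOXD4. LINC01116, listed in the table as AC017048.3, had 10 and 8 reads in ESCs and 17 and 24 in NECs and was not called (log2 fold change 1.08, SE 0.41, edgeR adjusted p 0.0592).

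Within HOXD the HOXD4 bait met HOXD10, at -44.8 kb, with 14.9 and 29.1 in ESC replicates and 21.2 and 23.6 in NEC replicates, which overlap. It met HOXD13 with 17.6 and 23.9 in ESCs and 14.5 and 12.4 in NECs. Shared pairs with the higher merged score in NECs were 36 of 54 in HOXD, 93 of 179 in HOXC, 24 of 62 in HOXA and 34 of 110 in HOXB, against 52.6% over all baits.

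Contacts between clusters were rare. From the HOX baits the merged lists held 0 calls to another HOX cluster in either cell type. The replicate lists held 2, both in ESC replicate 2. They joined the HOXB9 bait to chr7:27203006-27207966 in HOXA, with a score of 12.2, and the HOXC9 bait to the HOXB5 fragment, with a score of 12.1. A bait inside HOXB without a HOX start, with the starts of PRAC and HOXB13-AS1, met chr12:54448510-54457826 in HOXC in the same replicate, at 12.1. All of these lay just above the threshold of 12 and none recurred. With 500 kb of flank on each side there were 3 calls between clusters in each ESC replicate and 0 in the NEC replicates, out of 775, 771, 808 and 672 calls between chromosomes in all. The contact with another chromosome that both replicates of a cell type held joined HOXD3 to chr7:24241262-24244250, outside the HOXA cluster, with 17.7 and 14.9 in the ESC replicates and 14.3 in the merged ESC list. HOXD10 met the same fragment in ESC replicate 2 at 19.7 and in NEC replicate 2 at 12.04, and the merged ESC list held it at 12.01.

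Expression and contacts were set side by side. The 7 baits with a gene that rose held 7 pairs of NECs alone, 14 of ESCs alone and 14 of all 4 replicates. The bait with the gene that fell held 0, 3 and 0, and the 27 other baits held 20, 33 and 61. Over all baits, pairs of these kinds made up 2.46%, 2.56% and 2.85% of pairs in any replicate. Pairs in any replicate were not counted for each group of baits, so no link with expression is read from these numbers. The baits of genes that rose had 85 and 121 calls in ESC replicates and 92 and 77 in NEC replicates, which overlap. Among them HOXA2 had more PIRs in both NEC replicates but fewer in the merged NEC list, HOXB2 and HOXB3 had fewer in both kinds of list, and HOXA3, HOXB1 and HOXC4 overlapped. The baits were set at the outermost annotated start, and 5 of the 7 RefSeq promoters of HOXA3 lay on no HOX bait, so contacts of its other promoters are not counted here.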

How the data were processed

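RNA sequencing and PCHi-C of H9 ESCs and day 7 NECs were analysed, with 2 biological replicates each. The 2 Hi-C libraries were not used here. The authors deposited raw read counts per gene, made by trimming, mapping to GRCh37 with TopHat (TopHat2 2.0.8b and Bowtie 1.0.0 in the submitters' processing notes) and counting in Seqmonk on Ensembl genes without strand. They also deposited CHiCAGO scores of fragment pairs after HiCUP mapping, for each replicate and for both combined. Scores below 12 are not in the lists, and read numbers behind a pair are not given there, so the depth of a call is unknown.

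Counts of 31017 genes were filtered with filterByExpr (minimum count 10), scaled by TMM and tested with edgeR 4.0.16 in R 4.3.3 over the 4 libraries without covariates. DESeq2 1.42.0, other scalings, no filter, a replicate block, each library left out, a score of at least 15, wider baits and looser sharing were alternatives. On simulated data for this comparison, the test recovered 187 of 200 changed genes among 17421 with 1 false call. Counting intervals and floors cover counting error only, and p-values measure the spread between cultures of 1 line.

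A HOX bait was a fragment with the outermost annotated start of a HOX gene. For genes with long isoforms, among them HOXA3, HOXB3 and HOXC5, other promoters may lie on other fragments, and the RefSeq promoter of HOXC5 lay on the HOXC4 bait. HOXA3, HOXA5 and HOXA6 share 1, as do HOXC5, HOXC6 and HOXC10. A cluster ran from the first to the last HOX base. Pairs within a cluster were counted from HOX baits, each pair once. All 35 bait ends lay on HindIII sites of the GRCh37 reference. Exon lengths and overlaps came from GENCODE v44 lifted to GRCh37, and promoters from RefSeq (GRCh38.p14), placed in GRCh37 by exact match.

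The members and gene lists (cofactors, inducers and limits, anterior neural genes, neighbours, noncoding RNAs, Polycomb and Trithorax genes, and 4 marker lists) were chosen with earlier results of these data known. Named were HOX genes with at least 10 reads in a library, list genes that were called (at most 4 per direction), and contacts between clusters, highest-scoring contacts, or contacts in both replicates of 1 cell type alone. Others named were chosen after their values were seen. Some genes that are counted in the totals are not reported here by name or value.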

Additional observations from a re-analysis of the deposited data

How the results depend on the processing

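The 8 tested HOX genes kept their direction and call in all 71 values that the alternative fits gave for them, with HOXB13 below the count filter without ESC replicate 2. The number called higher was 7 or 8 in every setting. The number called lower ranged from 0 to 1 over the fits that left out 1 library, with 0 without ESC replicate 2. The numbers pair only 2 samples per cell type and their deviations correlated at 0.074, so they share only a number, and the replicate block left 7 called higher and 1 lower. Scaling by library size alone moved the median of all genes to 0.0749.

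Contact counts depended on the score and on merging. At a score of at least 15, merged calls were 317 in ESCs and 228 in NECs, pairs within a cluster 156 and 87, and shared pairs 140. With single replicate lists, calls ranged from 426 to 570 in ESCs and 360 to 462 in NECs. Pairs within a cluster ranged from 69 to 209 and 66 to 87, and shared pairs from 206 to 303. Calls of HOX baits between clusters in ESCs ranged from 0 to 2, the 2 in ESC replicate 2. With PIRs within 10 kb taken as the same, 633 were shared. The cause of these differences was not tested beyond what the construction of a merged or stricter list fixes. Depth limits the silent genes, since 31 HOX genes were too low to test.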
